A study of Mus musculus with 3 samples.

Results

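The plasminogen activator system of WT mouse embryonic fibroblasts (MEFs) was described from 6 genes: the activators Plat and Plau, the urokinase receptor gene Plaur, and the serpin genes Serpine2, Serpinb2 and Serpinf1. They were taken by name, and all 6 were present among the 21782 genes of the count table. RNA-seq of polyA-selected RNA was carried out in 3 MEF clones, 1 library per clone, and each value is given for every library or as their mean ± SD. The clones were of WT genotype, derived from E12.5 embryos, unsynchronized and grown in medium with 20% fetal serum. They are labelled as WT control, and the sources used here name no treatment. All are of 1 condition, so no conditions were compared. The sources used here do not give the strain or say whether the clones came from different embryos. The p-values measure the difference between these 3 libraries only.

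Plasminogen activators are secreted serine proteases that cut the zymogen plasminogen into plasmin, a protease that dissolves fibrin and cleaves matrix proteins. The urokinase receptor holds urokinase at the surface of the cell, and serpins end the reaction by trapping the protease in a covalent complex. Fibroblasts use this system during wound repair, migration and matrix turnover, and macrophages are known to carry parts of it as well.

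Between 22594316 and 25261357 reads were counted on genes per clone, and a gene with 0 counts may still be present at up to 0.119 to 0.133 CPM (counts per 1000000 counts, scaled to library size), the level of 3 counts. Intervals and floors cover counting error only. All 10 markers of the fibroblast list were detected, with summed levels of 67720 to 92920 CPM. Clone 2 stood apart in the macrophage list, whose summed levels were 406, 1908 and 336 CPM for clones 1, 2 and 3. Of the 13 macrophage markers, 12 were in the table, all 12 were highest in clone 2 and none was at 0 in all clones. The proliferation list was also highest in clone 2 for 6 of 6 genes, with sums of 368, 723 and 609 CPM in clones 1, 2 and 3. The sums of the other lists were 11.8 to 23.0 CPM for endothelium, 0.843 to 3.92 CPM for epithelium and 9.30 to 13.2 CPM for mesothelium, and none of their genes was at 0 in all clones. In such bulk samples, more cells of a type and more RNA per cell cannot be told apart.

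All 6 genes were transcribed in every clone, from a few CPM for Serpinb2 to 1252 CPM for Serpinf1. By a Pearson chi-square test of the counts of the 3 clones against library size, called at 0.05 after Benjamini-Hochberg adjustment over all 12218 genes tested, 6 of the 6 genes differed between libraries. This rule called 62.5% of all genes tested, so that the calls alone say little about these genes. When a ratio of 2 or more between the extreme clones (a 2-fold range) was required as well, 7.93% of all genes and 1 of the 6 genes, Serpinb2, were called. The median range was 1.36-fold over the 6 genes and 1.24-fold over all genes tested. Clone 2 held the highest level for 4 of the 6 genes (Plaur, Serpinb2, Serpinf1 and, by only 1.002-fold over clone 1, Plau), and 23.5% of all genes tested were called and highest in this clone. Without clone 2, 0 of the 6 genes were called with a 2-fold range, and the share over all genes tested was 1.64%.

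**Figure D1:**
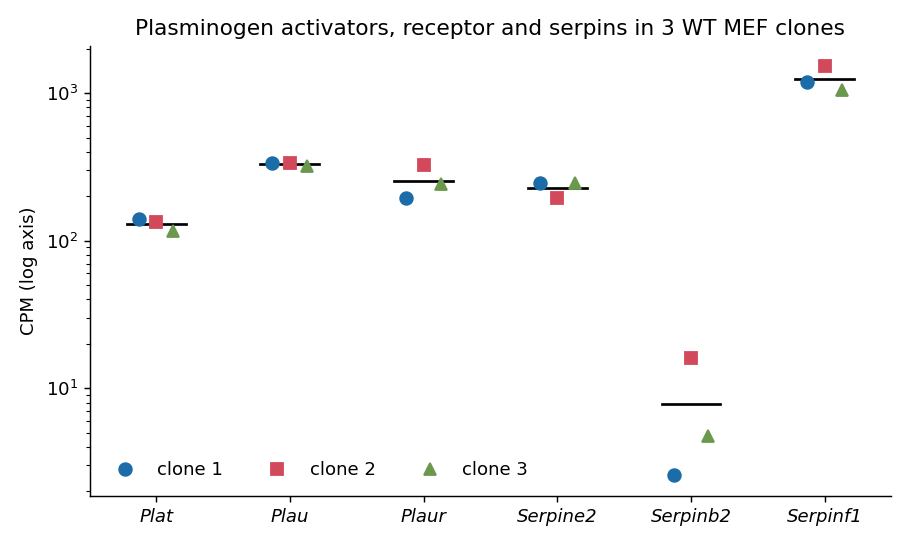
Level of each gene in CPM, on a log axis, in the 3 WT MEF clones; each point is 1 library and the line is the mean of the 3. Serpinf1 was the highest in every clone and Serpinb2 the lowest, at 2.58 to 15.97 CPM, with its highest point in clone 2.

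Plat encodes tissue-type plasminogen activator, the protease best known for dissolving clots. The gene lies on chromosome 8 of GRCm38 from 22757727 to 22782844 on the plus strand. Its transcript with the longest coding sequence has 14 exons and encodes 559 residues. Clones 1 to 3 had 3473, 3013 and 2940 Plat counts, or 140, 134 and 116 CPM, with a mean of 130 ± 12.1 CPM (SD, n = 3). Clone 3 was the lowest, while clones 1 and 2 were close to each other. The range was 1.201-fold, with an adjusted p-value of 2.85e-12 by the chi-square test, and 58.1% of the genes tested had a larger range. Without clone 3, clones 1 and 2 differed 1.05-fold and the adjusted p-value was 0.117.

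Plau encodes urokinase, the activator that acts on cell surfaces through its receptor. It lies on chromosome 14 from 20836660 to 20843385 on the plus strand, with 11 exons and 433 residues. Its counts were 8323, 7567 and 8092 in clones 1, 2 and 3, which after scaling gave 335, 336 and 320 CPM (330 ± 8.61 CPM; SD, n = 3). Plau had the most even level of the 6 genes, with a range of 1.05-fold (adjusted p-value 0.00762, chi-square test), and 95.6% of all genes tested had a larger one. This call depended on how the libraries were scaled, and with total counts the adjusted p-value was 0.329. Without clone 3, the range was 1.002-fold and the adjusted p-value was 0.937.

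Both activators were therefore measured in the same libraries at unequal levels. Of the reads on either gene, those on Plau were 70.6% for clone 1 (95% Wilson interval 69.7 to 71.4), 71.5% for clone 2 (70.7 to 72.4) and 73.4% for clone 3 (72.5 to 74.2), with a mean of 71.8% ± 1.42 (SD, n = 3). The intervals of clones 1 and 2 overlapped, and that of clone 3 lay above both. Plat has the longer annotated exons (6241 bp, against 2367 bp for Plau), so that per kb of exon the Plau share was 87.0% ± 0.788 (SD, n = 3). Taking instead the transcript that holds the longest coding sequence, it was 73.3% ± 1.37 (SD, n = 3). With each of these lengths, Plau was above Plat in all 3 clones.

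Plaur encodes the urokinase receptor, a protein tethered to the membrane by a lipid anchor. It lies on chromosome 7 from 24462484 to 24475968 on the plus strand, with 7 exons and 327 residues. Clone 1 had 4870 counts, clone 2 7339 and clone 3 6150. The levels of 196, 325 and 244 CPM (255 ± 65.5 CPM; SD, n = 3) were spread out, with clone 2 the highest and clone 1 the lowest. The range was 1.66-fold (adjusted p-value 6.03e-172, chi-square test), and 15.5% of the genes tested had a larger one. Without clone 2, clones 1 and 3 differed 1.24-fold, with an adjusted p-value of 9.77e-29.

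Receptor and ligand transcripts were thus not kept in 1 ratio across the clones. Of the reads on Plaur and Plau together, Plaur had 36.9% for clone 1 (95% Wilson interval 36.1 to 37.7), 49.2% for clone 2 (48.4 to 50.04) and 43.2% for clone 3 (42.4 to 44.0). The 3 intervals did not overlap. This share uses counts within a library, so it does not depend on the scaling of the libraries.

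Serpine2 encodes protease nexin, a secreted serpin that inhibits urokinase, tissue-type activator and thrombin. The gene lies on chromosome 1 from 79794197 to 79861180 and is read from the minus strand, with 9 exons and 397 residues. It had 6119, 4368 and 6209 counts in clones 1, 2 and 3, or 246, 194 and 246 CPM (229 ± 30.2 CPM; SD, n = 3). Of the 6 genes, it was the only one with its lowest level in clone 2. The range was 1.27-fold (adjusted p-value 8.67e-40, chi-square test), close to the median range of 1.24-fold over all genes tested. Clones 1 and 3 differed 1.0-fold when clone 2 was left out (adjusted p-value 0.991).
The counts of Serpine2 exceeded those of Plat in each clone, and its share of the reads on both was 63.8% for clone 1 (95% Wilson interval 62.8 to 64.8), 59.2% for clone 2 (58.1 to 60.3) and 67.9% for clone 3 (66.9 to 68.8). Per kb of exon, the level of Serpine2 was 1.33, 1.09 and 1.59 times that of Plat in clones 1, 2 and 3. Serpine2 and Plat were thus nearest to each other in clone 2. For Plau, the other activator that Serpine2 inhibits, it was the reverse. In clones 1, 2 and 3, Plau was at 141.5, 141.8 and 135.4 CPM per kb of exon. Serpine2 was at 29.7, 23.4 and 29.7 CPM per kb, so that Serpine2 and Plau were furthest apart in clone 2.

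Serpinb2 encodes a serpin that inhibits urokinase, stays mostly inside the cell and is known for its induction in activated macrophages. It lies on chromosome 1 from 107511423 to 107535478 on the plus strand, with 8 exons and 415 residues. It was the lowest and the most uneven of the 6 genes, with only 64 reads for clone 1, 120 for clone 3 and as many as 360 for clone 2. These correspond to 2.58, 4.75 and 15.97 CPM, and the SD (7.19 CPM, n = 3) was nearly as large as the mean of 7.76 CPM. The range of 6.20-fold had an adjusted p-value of 3.84e-69 by the chi-square test, and 57 of the 12218 genes tested (0.467%) had a larger one.
Without clone 2, the mean of Serpinb2 was 3.67 CPM and clones 1 and 3 differed 1.85-fold, with an adjusted p-value of 0.000234. In clone 2, the summed macrophage markers were also highest, with a range of 5.67-fold between clones, and the part of macrophages in the Serpinb2 level was not tested. The order of clones 1 and 3 was not the same in both, since Serpinb2 was lower in clone 1 than in clone 3, while the summed macrophage level was 406 CPM in clone 1 and 336 CPM in clone 3. Exons of the neighbouring serpin gene Serpinb10 on the same strand cover 12.4% of the exon length of Serpinb2. Serpinb10 had 3, 1 and 2 counts, and reads in the shared part may not have been assigned to either gene.
Serpinb2 was also scarce beside its target. For each count of Plau Serpinb2 had 0.00769, 0.0476 and 0.0148 counts across clones 1 to 3. As a share of the reads on both, this was 0.763% for clone 1 (95% Wilson interval 0.598 to 0.973), 4.54% for clone 2 (4.11 to 5.02) and 1.46% for clone 3 (1.22 to 1.74), and these intervals were separate from each other.

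Serpinf1 encodes pigment epithelium-derived factor, a secreted serpin that is not known to inhibit proteases and is known for restraining the growth of blood vessels. The gene lies on chromosome 11 from 75409769 to 75422701 and is read from the minus strand, with 8 exons and 417 residues. It had the highest counts of the 6 genes, at 29736, 34215 and 26335 for clones 1 to 3. The levels were 1197, 1517 and 1043 CPM (1252 ± 242 CPM; SD, n = 3), highest in clone 2 and lowest in clone 3. The range was 1.46-fold, with a chi-square of 2224 and an adjusted p-value that was returned as 0, and 25.2% of the genes tested had a larger range. Without clone 2, the range was 1.15-fold with an adjusted p-value of 1.14e-56.
In clone 2, Serpine2 was below its mean over the clones and Serpinf1 above it. Of the reads on Serpine2 and Serpinf1, Serpine2 had 17.1% for clone 1 (95% Wilson interval 16.7 to 17.5), 11.3% for clone 2 (11.01 to 11.6) and 19.1% for clone 3 (18.7 to 19.5). The mean was 15.8% ± 4.03 (SD, n = 3), and per kb of exon 5.11% ± 1.44 (SD, n = 3).

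Levels of different genes can be compared only per length. Per kb of all annotated exons, Serpinf1 was first at 531 ± 103 CPM per kb, followed by Plau at 140 ± 3.64, Plaur at 97.4 ± 25.02, Serpine2 at 27.6 ± 3.65, Plat at 20.8 ± 1.94 and Serpinb2 at 3.31 ± 3.06 CPM per kb (SD, n = 3). The clones of neighbours in this order did not overlap. The closest neighbours were Plau and Plaur, at a ratio of 1.14 in clone 2, and Serpine2 and Plat, at 1.09 in the same clone. The order of Plau and Plaur depended on the length. With lengths of the transcripts that hold the longest coding sequence, the ratio of Plau to Plaur was between 0.663 and 1.10, and with the longest transcripts between 0.885 and 1.47, so that these genes cannot be ranked. With both of these lengths, the other neighbours kept their order in every clone.
Among the 11343 genes with a length and at least 1 CPM in every clone, the median level was 5.46 CPM per kb. Only 51 of them had a mean above that of Serpinf1 (0.450%), 272 were above Plau (2.40%), 392 above Plaur (3.46%), 1515 above Serpine2 (13.4%) and 1981 above Plat (17.5%). Serpinb2 was in the lower part, with 7253 genes above it (63.9%).

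**Figure D2:**
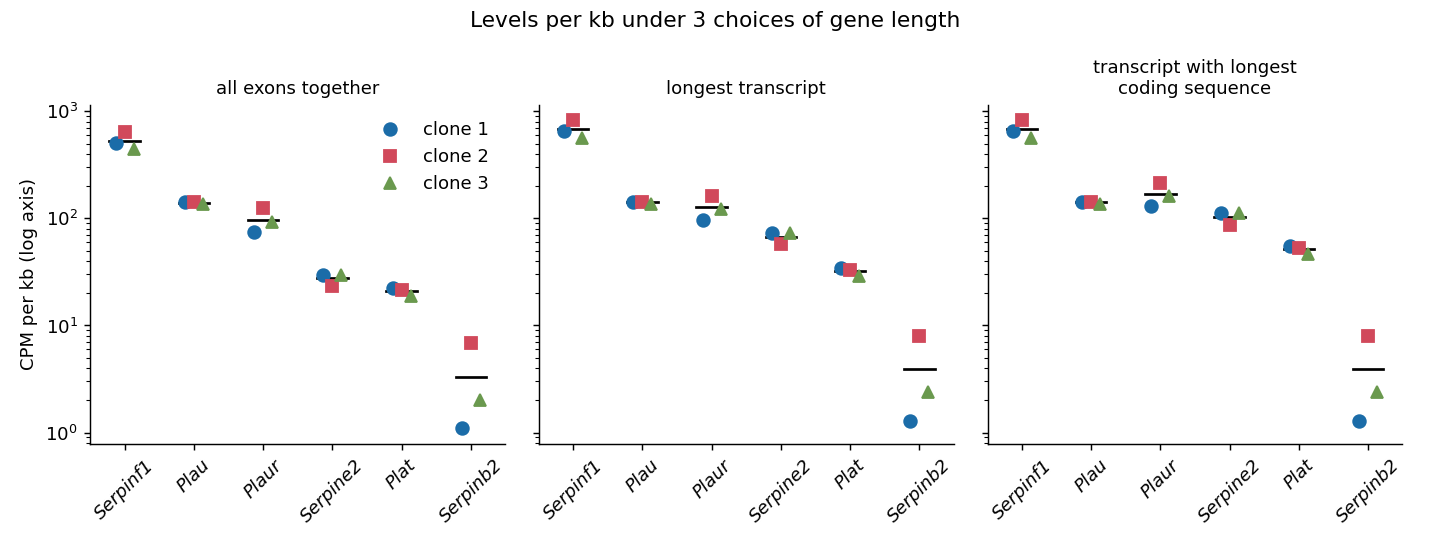
Levels in CPM per kb, on log axes, with counts divided by the length of all exons together, of the longest transcript or of the one that holds the longest coding sequence; points are the 3 clones and lines their means. Serpinf1 is first and Serpinb2 last in each panel, while the mean of Plaur is above that of Plau only in the panel for coding transcripts (Plaur at 97.4 CPM per kb of exon and 169 CPM per kb of the coding transcript).

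Over all genes tested, the quartiles of the range between clones were 0.175 and 0.544 on the log2 scale. On this scale the ranges were 0.07 for Plau, 0.26 for Plat, 0.35 for Serpine2, 0.54 for Serpinf1, 0.73 for Plaur and 2.63 for Serpinb2. Both activators thus lay below the median of 0.31, and the receptor and Serpinb2 lay above the upper quartile.

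**Figure D3:**
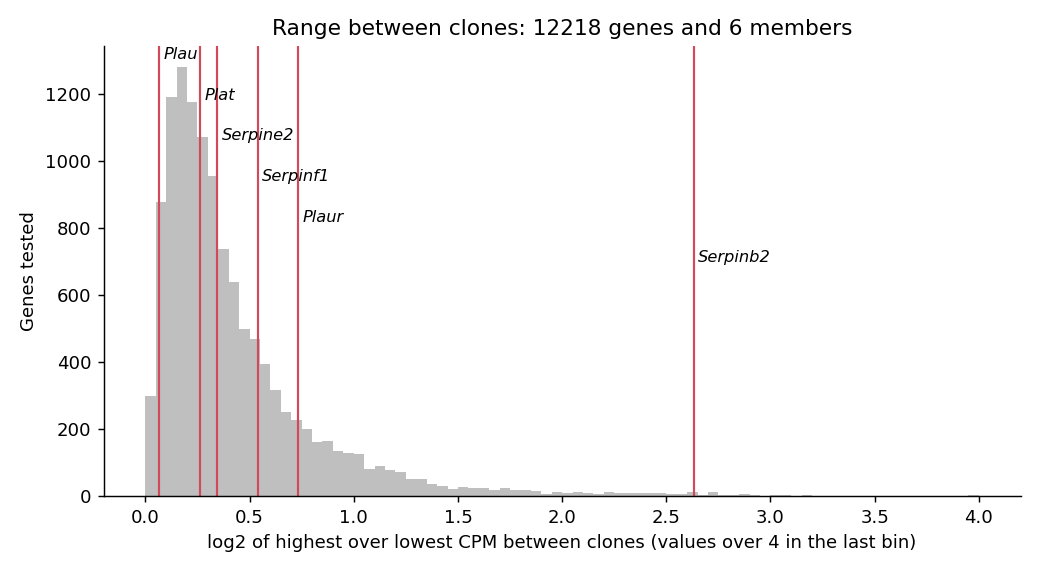
Histogram of the log2 range between the extreme clones for the 12218 genes tested, with red lines at the 6 genes. Plau (0.07) lies at the left edge, Plat, Serpine2, Serpinf1 and Plaur lie in the body of the distribution, and Serpinb2 (2.63) lies in its tail.

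When log2(CPM + 1) was centred on its mean for each gene, Serpinb2 stood at -0.98, 1.27 and -0.29 and Plaur at -0.35, 0.38 and -0.04 in clones 1, 2 and 3. Both were lowest in clone 1 and highest in clone 2. The median deviation of the macrophage list was -0.70, 1.502 and -0.85, and that of the proliferation list was -0.60, 0.43 and 0.18. Serpinf1 stood at -0.05, 0.29 and -0.25 and Serpine2 at 0.12, -0.23 and 0.11. The fibroblast list had its highest median in clone 1, at 0.23, with -0.09 in clone 2 and -0.10 in clone 3. The part of macrophages or of cycling cells in these differences was not tested.

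**Figure D4:**
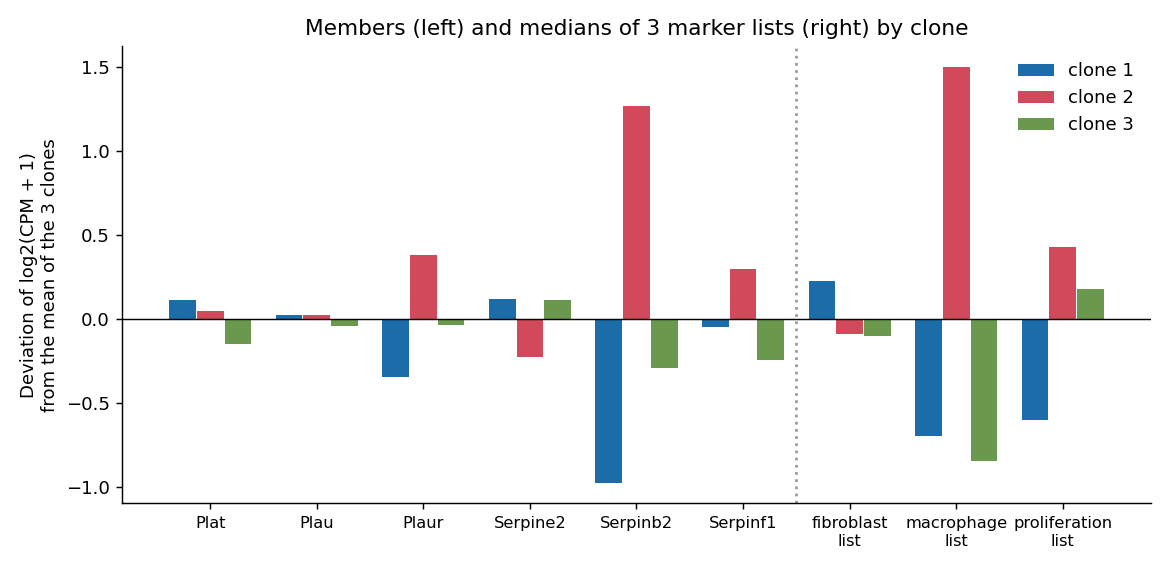
Bars show log2(CPM + 1) minus its mean over the clones for each gene (left of the dotted line) and the median deviation of the fibroblast, macrophage and proliferation lists (right). Serpinb2 at 1.27 and the macrophage list at 1.502 have the tallest bars, both in clone 2, whereas Serpine2 is below 0 there.

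Among 8388 genes averaging 10 CPM or more, the gene with the deviations nearest to Plaur was Ptgs2, the inducible cyclooxygenase gene, with 16040, 24061 and 20086 counts in clones 1, 2 and 3 (Euclidean distance 0.0079 over the 3 clones). For Serpinb2 the nearest was Crabp1, a retinoic acid-binding protein gene, with 549, 2049 and 935 counts, but at a larger distance of 0.223. The nearest genes were Tapbpl for Plat (0.0044), Pigq for Plau (0.0023) and Vwa5a for Serpinf1 (0.0115). With only 3 clones many genes share a pattern. There were 1492 genes within 0.1 of Plau, 400 within 0.1 of Plat, 38 within 0.1 of Plaur and 0 within 0.1 of Serpinb2. The distance is not scaled, so these counts depend on the size of the deviations and do not measure how common a pattern is.

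Plaur and Serpinb2 were picked after their values were seen, because both were lowest in clone 1 and highest in clone 2. Other genes had the same order, among them Anxa2 and Eno1 (described below), and a common regulation of the pair was not tested. The 250 bases before the annotated starts of Plaur and Serpinb2 are shown, as given by RefSeq on GRCm38.p6. RefSeq promoters were found for 4 of the 6 genes (Plaur, Serpinb2, Serpine2 and Serpinf1). The first sequence is the plus strand of chr7:24462233-24462482 and the second the plus strand of chr1:107511173-107511422, before the first of 2 listed starts of Serpinb2. Neither overlaps an annotated exon. Capitals mark matches, on either strand, to TGANTCA (the AP-1 motif), TATAAA (the TATA box), GGGCGG (the GC box) and CCAAT, which is ATTGG on the other strand.
Plaur: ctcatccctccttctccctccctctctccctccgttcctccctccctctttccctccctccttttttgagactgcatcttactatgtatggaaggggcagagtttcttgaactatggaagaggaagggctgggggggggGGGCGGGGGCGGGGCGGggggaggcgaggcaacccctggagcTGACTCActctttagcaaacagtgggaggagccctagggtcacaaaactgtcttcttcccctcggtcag
Serpinb2: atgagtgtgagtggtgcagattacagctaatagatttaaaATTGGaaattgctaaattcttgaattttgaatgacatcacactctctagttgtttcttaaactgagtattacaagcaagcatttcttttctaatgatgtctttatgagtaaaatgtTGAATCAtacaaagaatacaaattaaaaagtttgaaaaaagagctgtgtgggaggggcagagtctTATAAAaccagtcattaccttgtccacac
Both sequences hold 1 match to TGANTCA, which begins 69 bases before the start in Plaur and 94 bases before it in Serpinb2. The match is TGACTCA in Plaur and TGAATCA in Serpinb2, so that only Plaur holds TGACTCA itself. Of all 32851 RefSeq windows of this length, 6.7% hold a match to TGANTCA. Otherwise the sequences differ. The Plaur window has 3 adjoining matches to GGGCGG, the last 2 of which share a base, and no TATAAA (32.7% of all windows hold a GGGCGG). The Serpinb2 window has a TATAAA beginning 29 bases before the start (12.4% of all windows), 1 match to CCAAT on the opposite strand (33.8% of all windows) and no GGGCGG. Before the second listed start, the same TATAAA and TGAATCA begin 116 and 181 bases away. That window holds no CCAAT, and annotated exons cover 69 of its bases. The G and C content of the sequences shown was 59.6% for Plaur and 32.4% for Serpinb2. The window of Serpine2 had 6 matches to GGGCGG and that of Serpinf1 3 matches to CCAAT, and no match to TGANTCA was found in either. Annotated exons cover 31 of the 250 bases for Serpine2 and 221 for Serpinf1. These matches are letters in the sequence, and binding was not measured here.

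The other genes of the plasminogen system were taken from a list of 31 genes by role, of which 20 had enough counts to be tested and 19 were called by the chi-square test. Of these, 2 had a range of at least 2-fold and 6 were highest in clone 2. Over all genes tested, 62.5% were called, 7.93% with a 2-fold range, and 23.5% were called and highest in clone 2. The median log2 range was 0.47 over the 20 genes tested, against 0.31 over all genes. The enzyme precursor and its blood substrates were not detected, since Plg, the plasminogen gene, and the fibrinogen genes Fga, Fgb and Fgg had 0 counts in all clones. Thrombin (F2), the carboxypeptidase gene Cpb2, the gene of the matrix protein vitronectin (Vtn) and the protease inhibitor gene Pzp also had 0 counts. Of the plasmin inhibitors, Serpinf2 had 0, 3 and 2 counts and A2m 11, 4 and 0 counts in clones 1, 2 and 3. In total, 10 of the 31 genes had at most 3 counts in every clone, and 8 of them were at 0.

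The genes of the 4 surface proteins that bind plasminogen were transcribed, and 3 of them (Anxa2, S100a10 and Eno1) were called and highest in clone 2, as were 23.5% of all genes tested. Anxa2 and S100a10, which encode the 2 chains of a plasminogen-binding complex, were at 402 ± 70.3 and 151 ± 8.94 CPM per kb of exon (SD, n = 3). Anxa2 had 33107, 40619 and 34427 counts in clones 1, 2 and 3, with a range of 1.35-fold, and the range of S100a10 was 1.11-fold. For Eno1, 62.4% of the read-length stretches also match other genes, and its level is uncertain for that reason.
Of the 5 partners of the urokinase receptor, 4 were tested and called, as were 62.5% of all genes tested, and Vtn had 0 counts. Itgb1, an integrin chain, was at 1108 ± 69.7 CPM per kb, and Mrc2, the collagen receptor that associates with the urokinase receptor, at 92.2 ± 21.4 CPM per kb (SD, n = 3). Mrc2 was highest in clone 1, with 19360, 12385 and 13057 counts in the 3 clones.
The 3 genes reported for the clearance of activator and inhibitor complexes were all called, as were 62.5% of all genes tested. None of the 3 was highest in clone 2, and 23.5% of all genes tested were called and highest there. So few genes do not set this role apart from all genes. Lrp1, their main endocytic receptor, had 68418, 44277 and 47314 counts, with a range of 1.47-fold and a mean of 124 ± 27.3 CPM per kb (SD, n = 3), and Lrpap1, the gene of its chaperone, was at 33.1 ± 4.27 CPM per kb.

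Among growth factor genes whose products the activators can cleave, Pdgfc had 2666, 2322 and 2795 counts and a range of 1.08-fold, and it was the 1 gene of the list that was tested and not called (adjusted p-value 0.0585, chi-square test). Pdgfd was called, at 4.12 ± 0.987 CPM per kb (SD, n = 3). The thrombin receptor gene F2r was at 237 ± 14.9 CPM per kb and the tissue factor gene F3 at 129 ± 47.3 CPM per kb. F3 was highest in clone 2, with 6620, 10446 and 6249 counts and a range of 1.87-fold.
The 2 genes called with a 2-fold range were Serpini1 and Plxdc1, named after their values were seen. Serpini1, which encodes neuroserpin, an inhibitor of tissue-type activator, had 178, 66 and 140 counts, lowest in clone 2 (2.45-fold). Plxdc1, a receptor gene for pigment epithelium-derived factor, had 17, 32 and 11 counts (3.26-fold). Its relative Plxdc2 had more RNA, at 20.3 ± 4.65 CPM per kb, and was lowest in clone 2, and Pnpla2 was at 9.01 ± 1.37 CPM per kb (SD, n = 3).

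**Figure D5:**
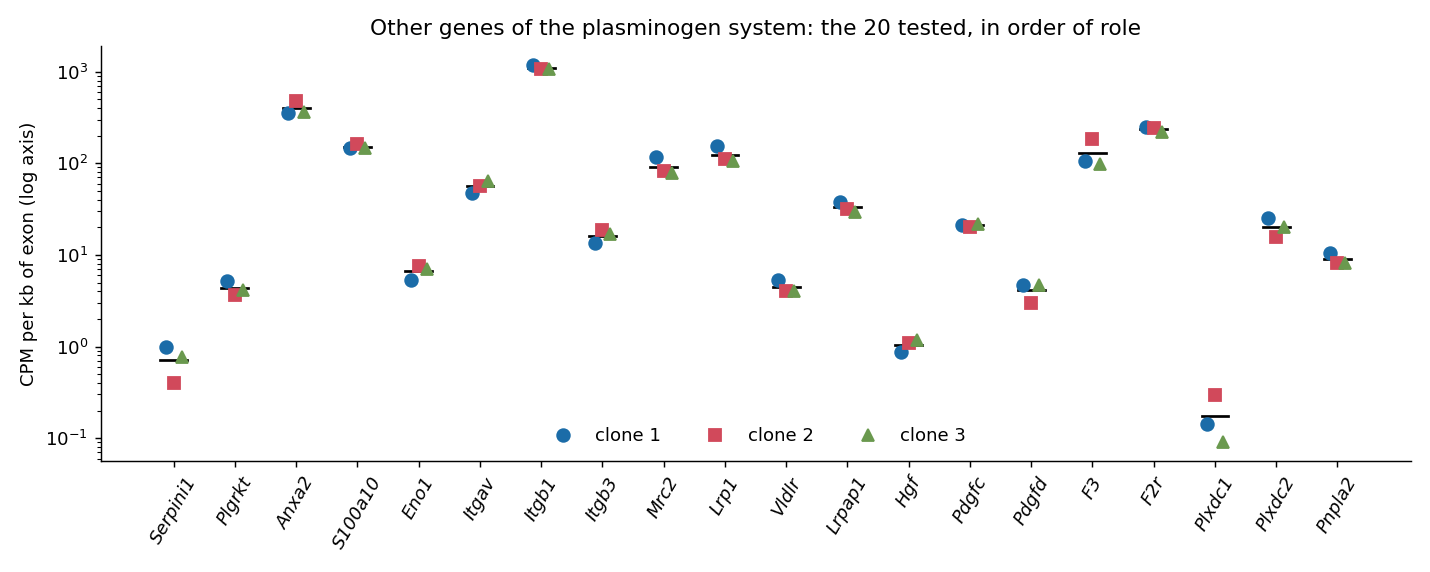
Level in CPM per kb of exon, on a log axis, of the 20 genes of the pathway list with at least 10 counts in every clone, ordered by role; points are the 3 clones and lines their means. Itgb1 is the highest at 1108 CPM per kb and Plxdc1 the lowest at 0.175 CPM per kb, and F3, Anxa2 and Plxdc1 have their highest points in clone 2.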

How the data were processed

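PolyA-selected RNA of 3 WT MEF clones was sequenced in single-end reads. Alignment used TopHat 2.0.0 with Bowtie 0.12.7, and Samtools in version 0.1.16, and the authors deposited raw read counts per gene from HTSeq, without normalization. The methods name the genome mm10, whereas the processing notes of the labels name mm9. The annotation and the strand setting are not given in the sources used here. Overlapping genes may therefore lose or share reads. Positions and lengths printed here are those of GENCODE M21 on GRCm38 and are not taken from the deposited table. By symbol or synonym, 99.7% of the 21782 genes were matched. In the transcript with the longest coding sequence of each of the 6 genes, no 86-nt stretch occurs exactly in a transcript of another gene. Other transcripts and exons of the 6 genes were not compared, so the part of Serpinb2 shared with Serpinb10 is not covered.

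CPM were computed with TMM-scaled library sizes (edgeR 4.0.16 in R 4.3.3), and totals are given above. Genes for which each clone had 10 counts or more were compared between libraries with a Pearson chi-square test (2 degrees of freedom), Benjamini-Hochberg adjusted over all of them. This test weighs counting error only and does not tell a clone from its culture or library. On simulated Poisson counts with 200 genes raised 2-fold in 1 clone, it called 97.0% of them and 6 of the unchanged genes among 12390. With 200 genes raised 1.5-fold it called 86.5% of them. Such counts hold counting error only, so they do not show how the test performs with the added variation of real libraries. The raised genes were drawn from genes whose expected counts met a higher minimum than that of the test. Recovery among the genes tested with the fewest counts was therefore not measured. Pairwise, the libraries of the clones differed at 3893 to 6531 genes. Each clone was counted as 1 replicate, although these differences do not show that the clones are independent. Shares have 95% Wilson intervals. All 6 member genes are named, with up to 2 genes of each role of the pathway list, those with the highest mean CPM among the genes tested, and the most similar gene for 5 of the members. The choice by level and the promoter motifs were set after the data were seen, and so were the further pathway genes named: those at or near 0 counts, Eno1, whose reads are shared, and the genes called with a 2-fold range. Of the list, 2 genes are not reported here, nor is the gene most similar to Serpine2. Members, lists and tests were chosen with earlier results of these data known. Alternatives were DESeq2 1.42.0 size factors, total counts, other count minimums, thinned counts, pseudocounts of 0.5 and 1 CPM, other gene lengths and leaving out each clone. Calculations used Python 3.11.15 with scipy 1.17.1.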

Additional observations from a re-analysis of the deposited data

How the results depend on the processing

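With DESeq2 size factors, other count minimums or thinned counts, the number of the 6 genes called and the number called with a 2-fold range remained 6 and 1. Over all genes, these settings called 54.8% to 65.4%, and 5.56% to 8.95% with a 2-fold range. With total counts, 5 of the 6 genes were called, since Plau lost its call, against 63.9% of all genes tested. Leaving out a clone gave 4 to 6 called genes and 0 to 1 with a 2-fold range, the 0 being without clone 2, where Serpinb2 ranged 1.85-fold. Over all genes, the shares called were 31.7%, 45.3% and 53% without clones 1, 2 and 3, and 3.94%, 1.64% and 6.78% with a 2-fold range. The mean of Serpinb2 ran from 3.67 to 10.4 CPM when a clone was left out. The log2 range of Serpine2 was 0.00 without clone 2, and that of Plat 0.07 without clone 3. Gene length moved more values than any other choice. With the longest transcript, levels were 32.2 for Plat, 127 for Plaur, 67.4 for Serpine2 and 684 CPM per kb for Serpinf1. With the transcript of the longest coding sequence they were 51.5, 169, 103 and 684 CPM per kb. Per kb of exon, the Plau share of both activators was 87.0% in place of 71.8%, and the Serpine2 share of Serpine2 and Serpinf1 was 5.11% in place of 15.8%. No paired analysis was possible because the samples are of 1 group. Depth limits Serpinb2 most, with 64 counts in clone 1.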
